A study of Bos taurus with 6 samples.

Results

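The genes described here encode the bone morphogenetic protein (BMP) and transforming growth factor beta (TGF-beta) pathway: ligands, receptors, SMAD proteins, regulators and target genes, 43 in all. Members were found as every probe set whose single gene symbol in the platform annotation is on that list. This gave 29 genes and 42 probe sets, of 24016 probe sets and 9155 gene symbols on the array. The other 14 members had no probe set under their own symbol and are not analysed here: BMP6, ACVR1B, TGFBR3, SMAD1, SMAD6, SMAD7, SMURF1, SMURF2, SKI, SKIL, ID4, NOG, CHRD and GREM1. The inhibitory SMADs, their ubiquitin ligases and the secreted BMP antagonists are therefore without a value.

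The series measured cumulus cells, the somatic cells that surround the oocyte, of cattle that were Bos indicus by Bos taurus crosses. Follicles of at least 8 mm supplied the complexes labelled competent (3 large-follicle arrays), and follicles between 1 and 3 mm those labelled incompetent (3 small-follicle arrays). The comparison asks which cumulus transcripts differ with follicle size, used as a proxy for oocyte competence. Ovaries were taken at slaughter, complexes of both groups had a compact cumulus, the cells were stripped by pipetting, and each array holds RNA of a pool. How many animals a pool holds is unknown, so a p-value reflects pool-to-pool spread only, and 3 arrays per group limit the precision. In pooled tissue, fewer cells of a type and less RNA per cell cannot be told apart.

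BMP and TGF-beta ligands bind pairs of type I and type II receptor kinases on the cell surface. The type I receptor then phosphorylates receptor-regulated SMADs, SMAD1 and SMAD5 downstream of BMPs and SMAD2 and SMAD3 downstream of TGF-beta and activin, which enter the nucleus with SMAD4. In the ovary the oocyte itself secretes ligands of this family, GDF9 and BMP15, and cumulus cells carry the receptors for them. The ID proteins, which block basic helix-loop-helix transcription factors, are well known BMP targets.

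Values are log2 signals, in which a difference of 1 is a doubling, and differences are large-follicle minus small-follicle arrays. The array medians lay between 5.64 and 5.68, and the lower quartile of probe set means was 3.83. Signals near or below that level are called low here, since no detection call is available. The granulosa and cumulus markers averaged 10.75 to 10.83 in large-follicle arrays and 10.21 to 10.35 in small-follicle arrays over 14 genes, 7 of which rose and 1 fell. Some probe sets of FOXL2, NR5A1 and CYP19A1 lay below the lower quartile, but 0 of the 14 genes did in their brightest probe set. Endothelial markers (13 measured of 14) averaged 3.89 to 4.03 in large-follicle arrays and 3.93 to 4.11 in small-follicle arrays, and oocyte markers (7 of 14) 3.84 to 3.92 in large-follicle arrays and 3.73 to 3.99 in small-follicle arrays. Theca and stroma markers (14 of 14) averaged 6.17 to 6.48 in large-follicle arrays and 5.98 to 6.50 in small-follicle arrays. Single markers of these lists moved. TAGLN rose by 1.67 (limma adjusted p = 0.0152) and NR2F2 fell by 0.76 in each of 2 probe sets (adjusted p = 0.00468 and 0.00328). Another NR2F2 probe set, below the lower quartile, differed by -0.21 and did not pass. The endothelial TEK fell by 0.57 at a mean below the lower quartile. FLT1 fell by 0.74 in 1 probe set, while its others differed by -0.09 and 0.11 and did not pass. The other 12 measured theca and stroma genes and 11 endothelial genes did not pass. Leukocyte markers (14 of 16) were highest in large-follicle replicate 1, at 5.55, with 4.69 and 4.41 in replicates 2 and 3, against 4.23, 4.12 and 4.83 in small-follicle replicates 1, 2 and 3. Of these markers LCP1 and CORO1A rose and 12 did not pass, and PTPRC, the pan-leukocyte antigen CD45, lay below the lower quartile in its 3 probe sets. The 3'-minus-5' index, a sign of RNA quality averaged over 6 control transcripts, ran from 1.77 to 2.15 in large-follicle arrays and from 2.16 to 2.68 in small-follicle arrays (exact permutation test, 2-sided, p = 0.1, the smallest possible with 3 against 3).

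Of 29 measured members, 4 rose in cumulus cells of large follicles: the target ID2, the corepressor TGIF1, the type II receptor BMPR2 and the type I receptor BMPR1B. None fell, and each of the 4 was called by 1 of its probe sets while another of the same gene did not pass. For ID2 the other probe set pointed the other way, at -0.58 (limma adjusted p = 0.193). By probe set, 4 of 42 (9.52%) were higher at a limma Benjamini-Hochberg adjusted p under 0.05, where 5.72% of all probe sets were. None was lower, against 7.16% of all probe sets, and 12.9% of all probe sets passed in either direction. At an unadjusted p under 0.05 there were 5 higher and 1 lower member probe sets, against 27% of all probe sets in either direction. The groups did not overlap in 7 of 42 (16.7%), against 30.9% of all probe sets; 5 of these were higher and 2 lower, against 14.7% and 16.3%. Without regard to any test, 28 member probe sets differed upwards and 14 downwards, against 52.3% and 47.7% of all. The median difference was 0.10 over the member probe sets and 0.01 over all, and the median size without sign was 0.18 against 0.15. Of the 42, 17 lay below the lower quartile of signal; among the 16 above the median signal the median difference was 0.28, against -0.02 for all such probe sets. The counts changed with the fit, for members and for the array as a whole. Leaving out any 1 array left 1 to 3 member probe sets higher, ID2 each time. Over the whole array 787 to 1142 were then higher, against 1374 with all arrays. Adding the 3'-minus-5' index to the model left no member higher, and 99 probe sets over the whole array. With the index the BMPR2 and BMPR1B differences were 0.66 (adjusted p = 0.156) and 0.69 (adjusted p = 0.178), larger than without it, while those of ID2 and TGIF1 were smaller. The index did not overlap between the groups, so index and follicle size cannot be told apart with these arrays. Differences with the index, here and below, are therefore not corrected effects. With array weights 5 member probe sets were higher, the fifth being one of ACVR1.

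**Figure D1:**
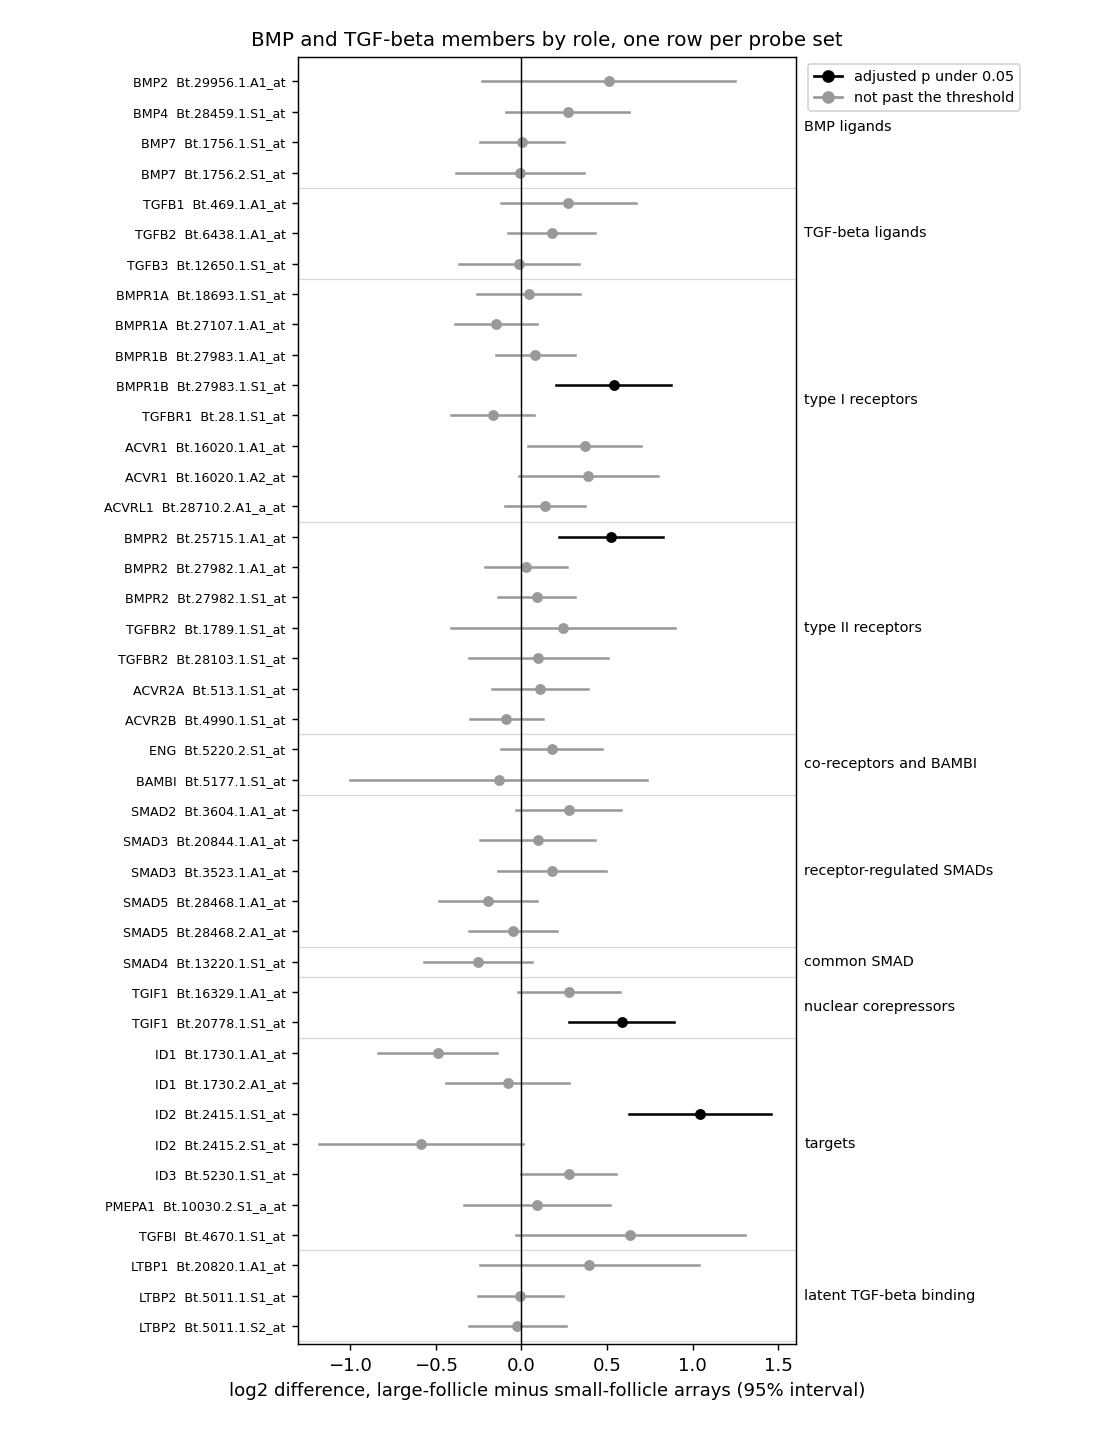
Log2 difference (large-follicle minus small-follicle arrays, 3 each) of all 42 member probe sets by role, with 95% intervals from limma. Black marks the 4 probe sets with an adjusted p under 0.05, all on the right of 0, and the other 38 are grey.

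Among the BMP ligands, BMP2, BMP4 and BMP7 were measured and none passed the test. BMP2, a ligand that acts through BMPR1A, BMPR1B and BMPR2, had signals of 5.36, 4.70 and 4.62 in large-follicle arrays, against 3.94, 4.07 and 5.14 in small-follicle arrays. The groups overlapped through small-follicle replicate 3 alone. Its difference was 0.51 ± 0.32 (log2 ± SE, adjusted p = 0.368), and without that array it was 0.89 with a call (adjusted p = 0.0445). The arrays with the highest BMP2 signal, large-follicle replicate 1 and small-follicle replicate 3, were also those with the most leukocyte marker signal, and with those markers as a covariate the BMP2 difference was 0.03. With the 3'-minus-5' index in the model it was -0.006. The part of leukocytes in the BMP2 values was not tested. BMP4, known in cattle as a product of theca cells, read 4.94, 4.72 and 4.79 in large-follicle arrays, against 4.73, 4.19 and 4.72 in small-follicle arrays, a difference of 0.27 ± 0.16 (adjusted p = 0.326) with narrowly overlapping ranges. Both probe sets of BMP7 lay below the lower quartile and differed by 0.003 and -0.007.

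The 3 TGF-beta ligands gave low signals in both groups. TGFB1 read 3.73, 3.00 and 3.29 in large-follicle arrays and 3.10, 3.00 and 3.10 in small-follicle arrays, TGFB2 3.57, 3.51 and 3.41 against 3.20, 3.50 and 3.26, and TGFB3 3.41, 3.46 and 3.46 against 3.82, 3.29 and 3.26. The groups overlapped for each, and the differences of 0.27, 0.18 and -0.01 did not pass (adjusted p = 0.366, 0.366 and 0.971). At such signals a change in these transcripts may not be measurable on this array.

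Of the type I receptors, BMPR1B rose and the other 4 measured did not pass. BMPR1B, a receptor for BMP15 and other BMPs whose variants alter ovulation rate in sheep, had signals of 3.94, 3.92 and 4.42 in large-follicle arrays, against 3.64, 3.56 and 3.46 in small-follicle arrays. Every large-follicle array lay above every small-follicle array, with large-follicle replicate 3 the highest. The mean was 4.09 ± 0.28 in large-follicle arrays and 3.55 ± 0.09 in small-follicle arrays (SD, n = 3 each), 1.45-fold higher by limma (log2 0.54 ± 0.15 SE, adjusted p = 0.0466). The mean over all arrays lay below the lower quartile, and its second probe set read 3.12, 2.92 and 3.07 against 3.03, 2.87 and 2.96, a difference of 0.08 (adjusted p = 0.667). The call was lost in each fit that left out 1 array, with differences of 0.38 to 0.63.

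BMPR1A, a type I receptor for BMPs, had signals in 1 of its 2 probe sets of 7.79, 7.78 and 7.54 in large-follicle arrays and 7.82, 7.90 and 7.83 in small-follicle arrays. All large-follicle values lay below the small-follicle ones, by a small margin, and the difference of -0.15 ± 0.10 did not pass (95% interval -0.38 to 0.09, adjusted p = 0.429). Its second probe set differed by 0.04 (adjusted p = 0.882). ACVR1, which transduces BMP signals through SMAD1 and SMAD5, gave similar differences in both its probe sets. The first read 7.39, 7.04 and 6.77 in large-follicle arrays, against 6.43, 6.72 and 6.88 in small-follicle arrays, with an overlap between replicates 3 of the groups and a difference of 0.39 ± 0.18 (adjusted p = 0.201). The second, below the lower quartile, read 3.85, 3.58 and 3.59 against 3.52, 3.04 and 3.35 without an overlap, a difference of 0.37 ± 0.14 (adjusted p = 0.139) that passed with array weights (0.51, adjusted p = 0.0455). TGFBR1, the type I receptor of TGF-beta and of GDF9, differed by -0.17 ± 0.11 at a low signal (adjusted p = 0.372). ACVRL1, a receptor best known from endothelium, differed by 0.14 ± 0.10 at means of 4.03 in large-follicle arrays and 3.90 in small-follicle arrays (adjusted p = 0.454).

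Of the 4 type II receptors, BMPR2 rose. BMPR2 is the type II receptor shared by BMPs, BMP15 and GDF9. In its called probe set it had signals of 6.56, 6.63 and 6.31 in large-follicle arrays, against 6.03, 6.13 and 5.77 in small-follicle arrays, without an overlap. Means were 6.50 ± 0.17 in large-follicle arrays and 5.98 ± 0.19 in small-follicle arrays (SD, n = 3 each), 1.44-fold higher (log2 0.52 ± 0.13 SE, adjusted p = 0.036). Its other probe sets, both below the lower quartile, read 3.88, 3.71 and 3.78 against 3.78, 3.62 and 3.70, and 3.24, 3.33 and 3.43 against 3.35, 3.39 and 3.17, with differences of 0.09 and 0.03 that did not pass. The call on BMPR2 held without large-follicle replicate 3 (0.62) and was lost in the other 5 fits that left out 1 array (0.42 to 0.60). It was also lost with the leukocyte markers as a covariate, at a difference of 0.54 (adjusted p = 0.1). That covariate left 745 probe sets higher over the whole array, against 1374 without it.

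The activin receptors did not pass. ACVR2B read 6.76, 6.84 and 6.92 in large-follicle arrays, against 6.94, 6.88 and 6.96 in small-follicle arrays. The ranges overlapped and the difference was -0.09 ± 0.09 (95% interval -0.30 to 0.13). ACVR2A, at a low signal, differed by 0.11 ± 0.12. TGFBR2, the type II receptor of TGF-beta, read 4.78, 3.88 and 3.98 in large-follicle arrays, against 3.80, 3.61 and 4.50 in small-follicle arrays, a difference of 0.24 ± 0.29, and 0.10 ± 0.18 in a second probe set. Its highest arrays were again the 2 with the most leukocyte marker signal, and the part of those cells in the TGFBR2 values was not tested.

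ENG, the endothelial co-receptor endoglin, gave low signals of 3.86, 3.56 and 3.57 in large-follicle arrays and 3.58, 3.59 and 3.29 in small-follicle arrays (difference 0.18 ± 0.13). BAMBI, a pseudoreceptor that lacks the kinase domain and dampens signalling, read 7.71, 6.46 and 6.55 in large-follicle arrays, against 7.61, 7.08 and 6.42 in small-follicle arrays. Replicate 1 was the highest in both groups, so the spread within groups was wider than the difference of -0.13 ± 0.38 (95% interval -1.0 to 0.74).

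None of the measured SMADs, which carry the signal to the nucleus, passed the test. SMAD2, which relays activin, TGF-beta and GDF9, had signals of 11.53, 11.75 and 11.32 in large-follicle arrays, against 11.11, 11.28 and 11.38 in small-follicle arrays. The overlap was between replicates 3, and the difference of 0.28 ± 0.13 did not pass (95% interval -0.03 to 0.58, adjusted p = 0.229). It was 0.17 without large-follicle replicate 2 and 0.01 with the 3'-minus-5' index in the model. SMAD4, the partner of all receptor-regulated SMADs, had signals of 11.63, 11.74 and 11.58 in large-follicle arrays, against 11.88, 11.66 and 12.17 in small-follicle arrays, a difference of -0.25 ± 0.14 (95% interval -0.57 to 0.06, adjusted p = 0.289). It was -0.12 without small-follicle replicate 3 and -0.54 with the index. The probe sets of SMAD3 differed by 0.10 and 0.18, and those of SMAD5 by -0.19 and -0.05, none past the threshold. The 95% intervals of these 6 probe sets all lay between -0.57 and 0.58.

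TGIF1, a homeodomain protein that binds SMAD2 and SMAD3 and recruits corepressors, rose in 1 of its 2 probe sets. The called probe set had signals of 7.63, 8.02 and 8.02 in large-follicle arrays, against 7.18, 7.31 and 7.42 in small-follicle arrays, without an overlap. Its means were 7.89 ± 0.23 in large-follicle arrays and 7.30 ± 0.12 in small-follicle arrays (SD, n = 3 each), 1.5-fold higher (log2 0.59 ± 0.13 SE, adjusted p = 0.0249). The other probe set read 9.83, 10.05 and 9.64 in large-follicle arrays, against 9.56, 9.43 and 9.69 in small-follicle arrays, with a difference of 0.28 ± 0.13 in the same direction that did not pass (adjusted p = 0.211). Without large-follicle replicate 2 or 3, or small-follicle replicate 1 or 2, the called probe set differed by 0.52 to 0.59 and no longer passed. With the index in the model its difference was 0.30 (adjusted p = 0.39).

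Among the targets, 1 probe set of ID2 passed the test, and none of ID1 or ID3 did. ID2 had the largest difference of the 42 member probe sets: its called probe set read 11.55, 11.64 and 11.01 in large-follicle arrays, against 10.40, 10.14 and 10.54 in small-follicle arrays. All large-follicle arrays lay above all small-follicle ones, with large-follicle replicate 3 nearest to them. Means were 11.40 ± 0.34 in large-follicle arrays and 10.36 ± 0.20 in small-follicle arrays (SD, n = 3 each), 2.06-fold higher (log2 1.04 ± 0.18 SE, adjusted p = 0.00901). This call held in all 6 fits that left out 1 array (0.92 to 1.24) and with the leukocyte markers as a covariate (0.86, adjusted p = 0.0351), and it was lost with the index in the model (0.82, adjusted p = 0.187). The second ID2 probe set pointed the other way, at 6.30, 6.04 and 6.90 in large-follicle arrays, against 7.48, 6.71 and 6.80 in small-follicle arrays. Large-follicle replicate 3 overlapped the small-follicle range there, and the difference of -0.58 ± 0.26 did not pass (adjusted p = 0.193). The 2 probe sets of ID2 thus gave differences of opposite sign, and what each of them measures was not tested.

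ID1 had signals of 7.30, 6.98 and 6.96 in large-follicle arrays, against 7.83, 7.53 and 7.34 in small-follicle arrays. The groups did not overlap, large-follicle arrays being the lower, and the difference of -0.49 ± 0.15 missed the threshold (95% interval -0.83 to -0.14, adjusted p = 0.074). Without small-follicle replicate 3 it was -0.60 with an adjusted p = 0.0498, and with the index in the model it was -0.09. The other ID1 probe set, below the lower quartile, read 3.07, 3.14 and 3.58 against 3.54, 3.22 and 3.27 and differed by -0.08 ± 0.16. ID3 read 9.74, 9.68 and 9.52 in large-follicle arrays, against 9.25, 9.28 and 9.58 in small-follicle arrays, a difference of 0.28 ± 0.12 (adjusted p = 0.187) with small-follicle replicate 3 inside the large-follicle range. The difference between the ID genes was not tested.

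**Figure D2:**
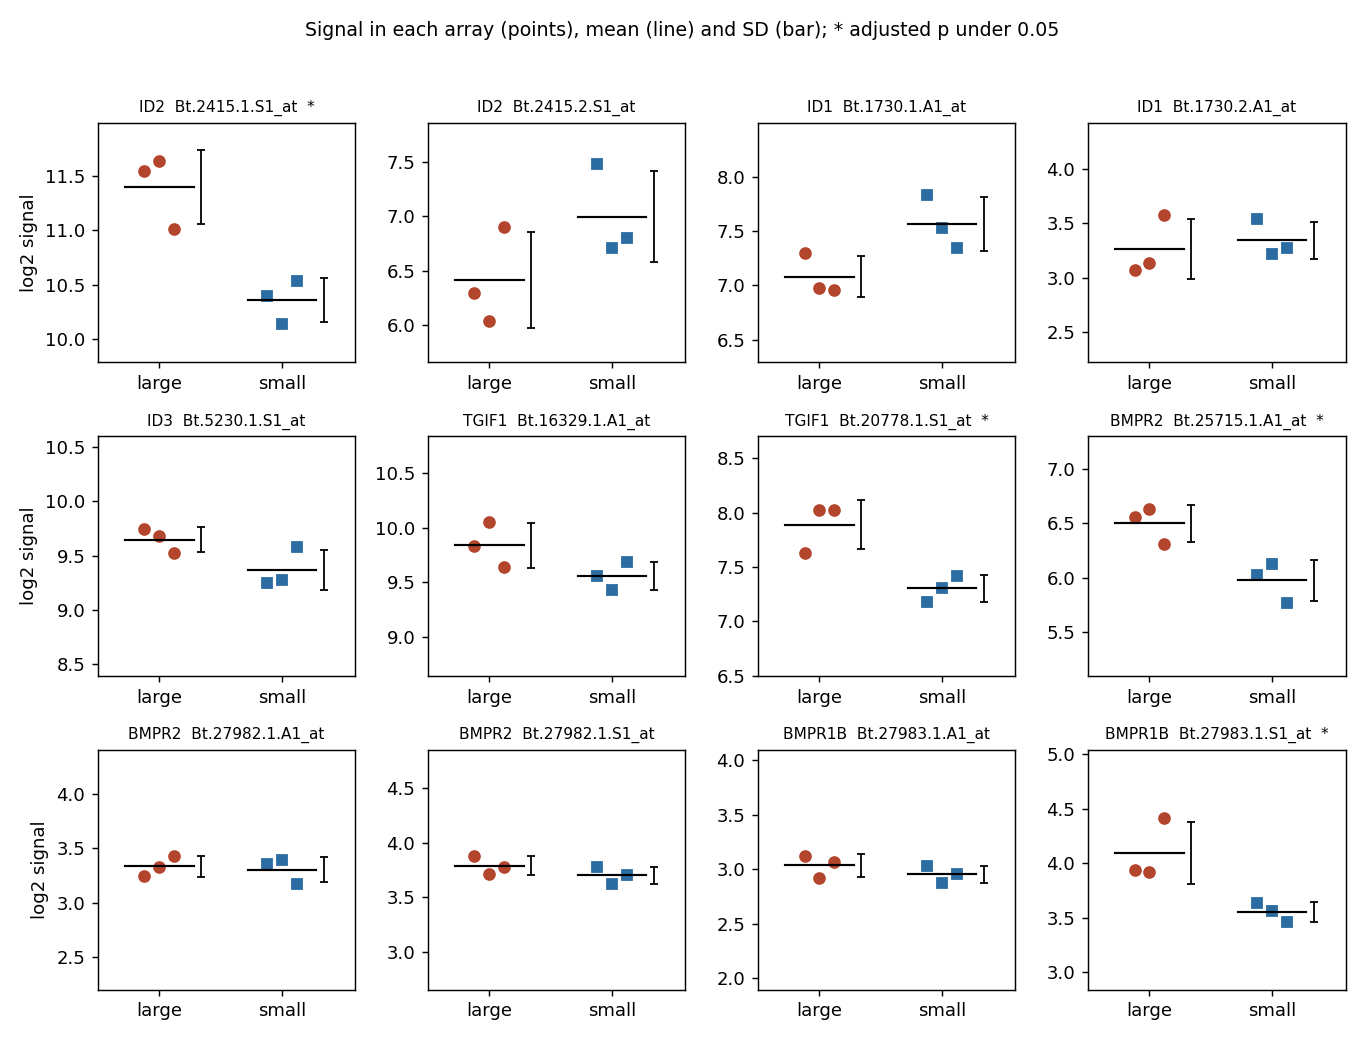
Log2 signal of each array for all probe sets of ID2, ID1, ID3, TGIF1, BMPR2 and BMPR1B, with large-follicle arrays (circles) left of small-follicle arrays (squares), the mean as a line and the SD as a bar. Every panel spans the same range of 2.2 log2 units. An asterisk marks the 4 called probe sets, in which the groups do not overlap.

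TGFBI and PMEPA1, genes induced by TGF-beta, did not pass. TGFBI, a secreted matrix protein, read 7.94, 6.90 and 6.74 in large-follicle arrays, against 6.45, 6.40 and 6.82 in small-follicle arrays, a difference of 0.64 ± 0.29 (adjusted p = 0.204). Large-follicle replicate 1 and small-follicle replicate 3 were the highest of their groups, as for BMP2 and the leukocyte markers. Without large-follicle replicate 1 the difference was 0.26, and with the leukocyte markers as a covariate it was 0.17. The part of leukocytes in the TGFBI values was not tested. PMEPA1 differed by 0.09 ± 0.19.

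The latent TGF-beta binding proteins hold TGF-beta in the matrix. LTBP1 read 7.05, 6.99 and 6.64 in large-follicle arrays, against 5.80, 7.0 and 6.69 in small-follicle arrays. Small-follicle replicate 1 alone lay apart, and the difference of 0.40 ± 0.28 (adjusted p = 0.425) was 0.05 without it. LTBP2 differed by -0.007 and -0.02 in its probe sets.

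**Figure D3:**
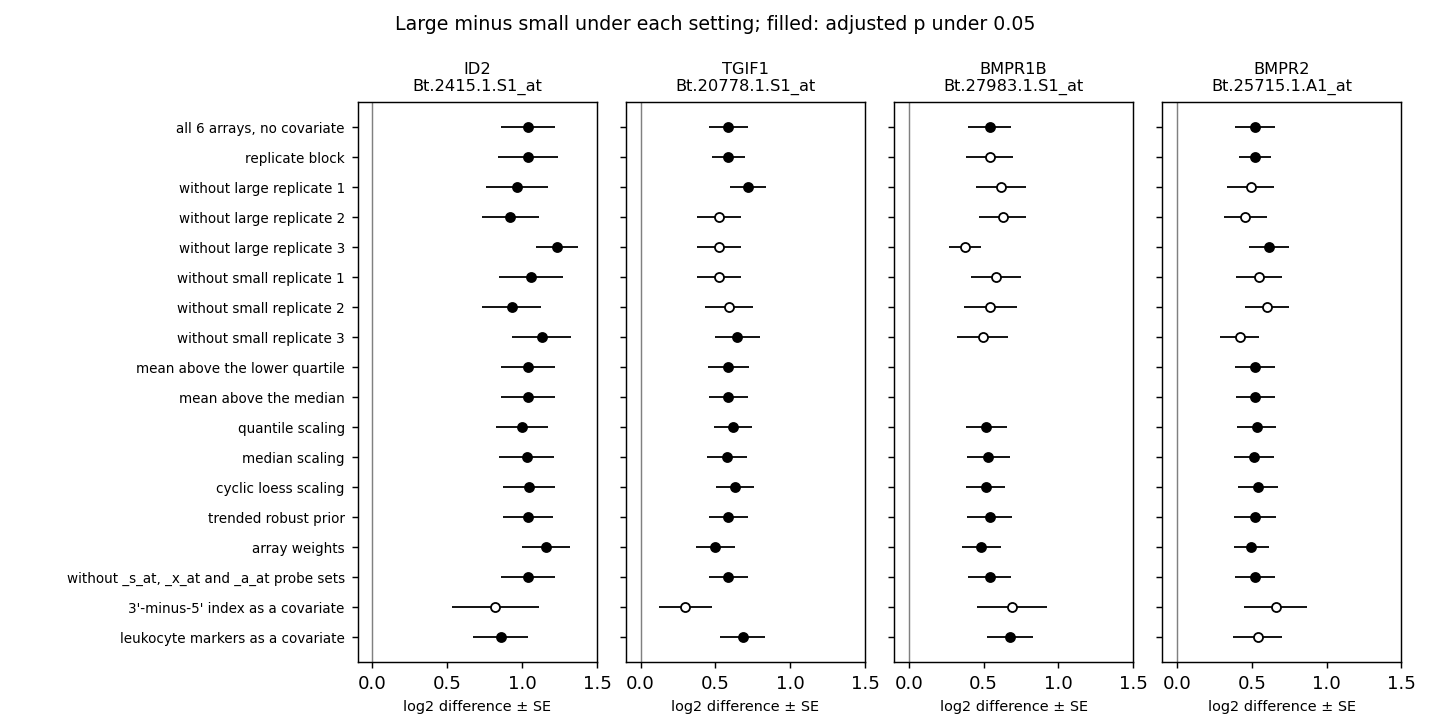
Log2 difference ± SE of the 4 called member probe sets under each setting of the fit. Filled points have an adjusted p under 0.05. ID2 stayed filled in every leave-out fit, BMPR1B in none, and all 4 were open with the 3'-minus-5' index. BMPR1B has no point under the filters on low signal, which remove it.

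Other genes of the pathway were read from lists of ligands, receptors, modulators, regulators and targets that are not among the members. Of 10 measured other ligands, 2 rose and 8 did not pass (median difference of the 14 probe sets 0.13). By probe set, 2 of 14 were higher and 0 lower by limma, against 5.72% and 7.16% of all probe sets. INHBA, the activin A subunit, had signals of 14.06, 14.04 and 14.11 in large-follicle arrays, against 12.83, 13.09 and 12.86 in small-follicle arrays, a difference of 1.14 ± 0.10 (adjusted p = 0.00107), and its call held in all alternatives run. INHA, the inhibin alpha subunit, rose by 0.42 ± 0.09 (adjusted p = 0.0224), a call lost in 4 of 6 fits that left out 1 array, at 0.38 to 0.44. AMH differed by -0.06 ± 0.10 and did not pass. The activin-binding FST read 14.07, 14.03 and 14.07 in large-follicle arrays, against 13.82, 13.85 and 13.82 in small-follicle arrays, without an overlap, and its difference of 0.23 ± 0.09 did not pass (adjusted p = 0.132) except with a trended robust prior (adjusted p = 0.0136). FST, and INHBA in large-follicle arrays, lay near the highest value of the whole table, 14.39, where differences may be compressed; whether these probe sets were saturated was not tested. The oocyte ligands GDF9, with means of 4.81 in large-follicle arrays and 4.77 in small-follicle arrays, and BMP15, with means of 3.90 in large-follicle arrays and 3.74 in small-follicle arrays in 1 probe set, did not pass either. Of the other receptors NRP1 and CRIPTO were measured, and 0 of 2 passed limma's test, at 0.54 ± 0.38 and 0.04 ± 0.12, nor did either at an unadjusted p under 0.05.

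Among 11 extracellular modulators with a probe set, CRIM1 rose, FBN1 fell and 9 missed the threshold. By probe set, 3 of 22 passed in either direction, near the 12.9% of all probe sets. CRIM1, a membrane protein that binds BMPs, had signals of 8.66, 9.47 and 8.96 in large-follicle arrays, against 8.03, 8.09 and 8.43 in small-follicle arrays, a difference of 0.85 ± 0.20 (adjusted p = 0.0309). A second probe set passed at 0.42 (adjusted p = 0.0485), and 2 further ones read 0.64 and 0.83 and did not pass. The CRIM1 calls were lost in 4 and 6 of the fits that left out 1 array, at 0.63 to 0.88 and 0.32 to 0.50, and the first read 0.24 with the 3'-minus-5' index. FBN1, the microfibril protein fibrillin that anchors latent TGF-beta complexes, had signals of 6.87, 7.01 and 6.61 in large-follicle arrays, against 8.70, 8.29 and 8.35 in small-follicle arrays. It fell by 1.62 ± 0.15 on the log2 scale (adjusted p = 0.00107), and this call held in all alternatives run. FBN1 is also a product of stromal cells. Of the theca and stroma markers 1 gene fell (NR2F2, as given above), 1 rose (TAGLN, by 1.67) and 12 did not pass. The mean of that list differed by 0.06. Uncalled differences went both ways: -1.29 and -1.08 for COL1A2, -1.14 and -1.04 for COL3A1, 1.37 for 1 probe set of PDGFRA and 0.75 for ACTA2. The part of stromal cells in the FBN1 difference was not tested.

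Among 23 intracellular regulators with a probe set, 3 rose, 2 fell and the other 18 missed the threshold (median difference of the 33 probe sets 0). By probe set, 3 of 33 were higher and 2 lower, close to the 5.72% and 7.16% of all probe sets. FKBP1A, which holds type I receptors inactive, rose by 0.38 ± 0.09 and USP15, a deubiquitinase of the pathway, by 0.39 ± 0.10. TOB1, a repressor of BMP signalling, fell by 0.54 ± 0.12, and WWP1, a ubiquitin ligase, fell by 0.54 ± 0.13. STRAP, which binds TGF-beta receptors, rose by 0.39 ± 0.10 in 1 of 3 probe sets. It is named here after its value was seen. Further probe sets of TOB1 (-0.32), USP15 (0.07) and STRAP (-0.08 and 0.46) did not pass. Adjusted p-values of the 5 calls lay between 0.0221 and 0.0364, and each call was lost in 4 to 6 of the 6 fits that left out 1 array.

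Of other genes known as targets of TGF-beta or BMP signalling there were 26 with a probe set, of which 6 rose, 1 fell and 19 missed the threshold. By probe set, 7 of 42 were higher and 3 lower, against 5.72% and 7.16% of all probe sets, and the median difference was 0.08. KLF10 gave 2 of the 7 and RHOB all 3 of the lower ones. These genes answer to many other stimuli as well. CDKN1A, which encodes the cyclin-dependent kinase inhibitor p21, had signals of 9.20, 9.37 and 9.48 in large-follicle arrays, against 7.18, 7.38 and 7.19 in small-follicle arrays, 4.29-fold higher (log2 2.10 ± 0.11 SE, adjusted p = 0.000265). JUNB, an AP-1 transcription factor, had signals of 9.50, 9.56 and 9.66 in large-follicle arrays, against 8.64, 8.57 and 8.61 in small-follicle arrays (difference 0.97 ± 0.09, adjusted p = 0.00122). IER3, an early response gene, rose by 1.02 ± 0.15 (adjusted p = 0.00468). RHOB, a small GTPase, fell in all 3 of its probe sets, by 0.71, 0.83 and 0.95 on the log2 scale (adjusted p = 0.00592, 0.0113 and 0.00483).

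Of the calls in that list 3 fall outside the 4 smallest p-values and are named after their values were seen. KLF10, a TGF-beta inducible early gene, had signals of 11.57, 12.08 and 11.24 in large-follicle arrays, against 10.13, 10.40 and 10.92 in small-follicle arrays, a difference of 1.15 ± 0.25 (adjusted p = 0.0211), and its second probe set rose by 0.77 ± 0.17 (adjusted p = 0.0247). TSC22D1, another early TGF-beta target, had signals of 13, 12.78 and 12.75 in large-follicle arrays, against 11.74, 11.87 and 12.35 in small-follicle arrays (0.86 ± 0.16, adjusted p = 0.0131). ANGPTL4 rose by 0.69 ± 0.15 (adjusted p = 0.0241). For these 3 genes small-follicle replicate 3 was the highest of its group. The KLF10 probe sets and ANGPTL4 each lost the call in 4 of 6 fits that left out 1 array, at 0.92 to 1.18, 0.65 to 0.74 and 0.62 to 0.74, and TSC22D1 lost it without small-follicle replicate 2 (0.80). With the index in the model CDKN1A (2.07, adjusted p = 0.0185) and JUNB (0.96, adjusted p = 0.0466) still passed, while IER3 (0.76), TSC22D1 (0.56), KLF10 (0.41 and 0.49), ANGPTL4 (0.47) and RHOB (-0.62, -0.40 and -0.64) did not.

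**Figure D4:**
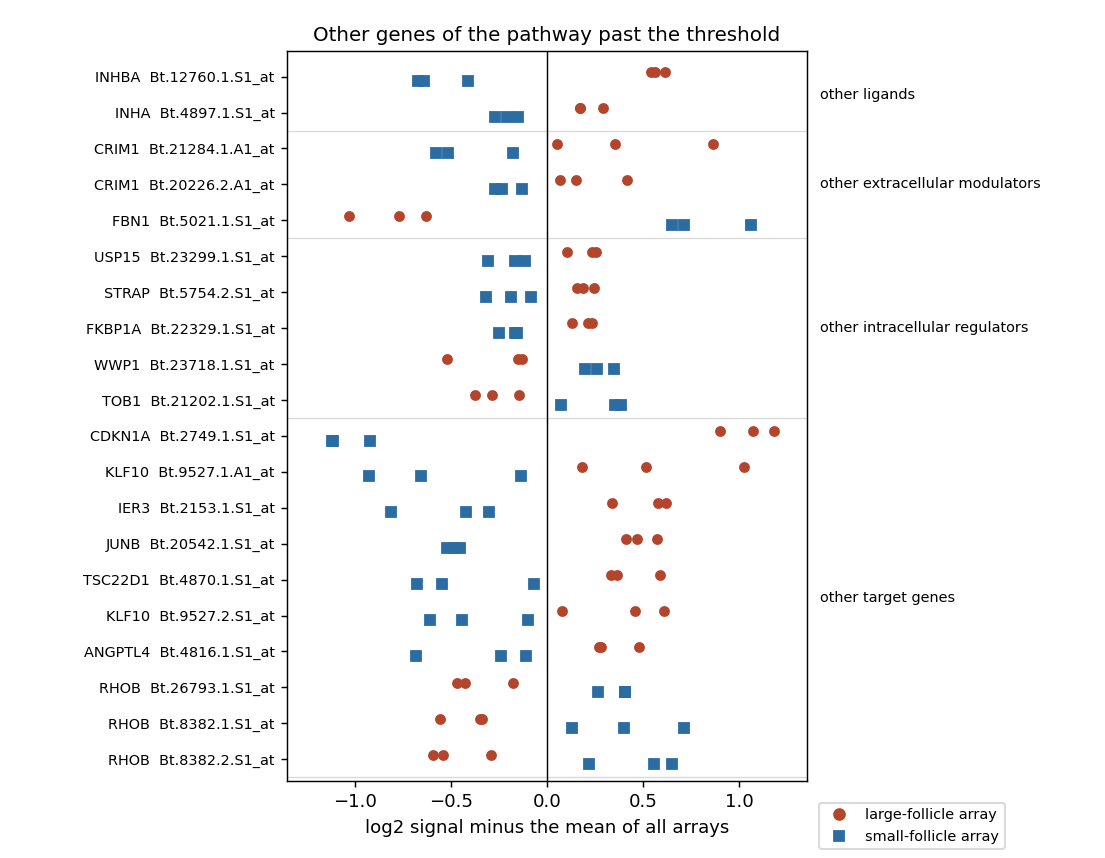
Log2 signal of each array minus the mean of all 6, for the 20 probe sets of other pathway genes with an adjusted p under 0.05, grouped by list. Circles are large-follicle arrays and squares small-follicle arrays, and the groups overlap in none of these probe sets.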

How the data were processed

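For 6 Affymetrix bovine arrays of cumulus cells the authors deposited log2 signals per probe set. Per the submitters' processing notes RMA was used, with version and settings unstated. Of 24128 probe sets, 112 controls were left out. Names come from the platform annotation, with 13263 probe sets matched by gene identifier to RefSeq (ARS-UCD2.0, names only). Expression of all 24016 remaining probe sets was modelled using limma 3.58.1 under R 4.3.3 (lmFit and eBayes without a block), with 2-sided moderated tests and Benjamini-Hochberg adjustment over all of them at 0.05. Same-numbered arrays did not deviate together (correlations -0.002, -0.054 and -0.343), but with 3 arrays per group this check cannot exclude a pairing. Members and lists were chosen with earlier results of these data known. Values in every array are given for called member probe sets, member genes whose probe sets disagree, the ID genes, and the member with the smallest p and highest mean of each role; up to 4 called genes by smallest p are named per other list. Alternatives were a block, leave-outs, filters, scalings, priors, weights, thresholds and covariates. On simulated data for this comparison (24016 probe sets) 32.8% of 67 planted differences of 0.5, 82.1% of 67 of 1 and 97% of 66 of 2 were recovered, with 10 false calls. The simulation left 23816 probe sets unchanged, whereas limma called 12.9% of all probe sets in the data. The adjustment depends on that share, so recovery in the data may differ. Figures used python 3.11.15 and matplotlib 3.10.9.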

Additional observations from a re-analysis of the deposited data

How the results depend on the processing

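Leaving out 1 array left 1 to 3 member probe sets higher and 0 to 1 lower, against 4 and 0 with all arrays. Over the whole array these fits left 787 to 1142 probe sets higher and 828 to 1337 lower, against 1374 and 1720. Adding the 3'-minus-5' index to the model left 0 higher, with 99 probe sets higher and 116 lower over the whole array, and a threshold of 0.01 left 1, ID2, while array weights gave 5 higher. One member probe set, of ID1, was lower (1) with a replicate block, with probe sets above the median signal, and at a threshold of 0.1. The labels do not state whether same-numbered arrays are paired. With the replicate block 930 probe sets were higher and 1034 lower over the array, against 1374 and 1720. The block ended the call on BMPR1B (0.54, adjusted p = 0.0946). It also ended those on INHA, FKBP1A, USP15, WWP1, STRAP, ANGPTL4, the second CRIM1 and the second KLF10 probe set (adjusted p = 0.0614 to 0.111). The other named calls of members and pathway genes stayed. The median difference of the members, 0.10, was 0.06 to 0.17 leaving out 1 array, 0.18 among probe sets above the lower quartile of signal, 0.28 above the median, and 0.20 with the index; the filters leave 25 and 16 member probe sets. The uncalled BMP2 difference, 0.51, was 0.28 to 0.89 leaving out 1 array and -0.006 with the index. Other uncalled differences that changed sign were an uncalled BMPR2 probe set -0.037 to 0.077 leaving out 1 array and -0.028 with array weights; the second ID1 probe set -0.238 to 0.018 leaving out 1 array, 0.048 with the index and 0.062 with the leukocyte markers; and AMH 0.026 with the index. No called member changed sign in the alternatives run. The cause of these changes was not tested. Low signals limit BMPR1B, the TGF-beta ligands and 17 member probe sets below the lower quartile in all.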
